A study of Saccharomyces cerevisiae with 46 samples.

Results

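The comparison set a reporter terminator carrying A motifs, modNAA, against a terminator of the same layout without named motifs, modNNN, in 3 promoter and terminator contexts. Its members were 14 of the 46 libraries of the series, chosen by plasmid label, 6 with modNAA and 8 with modNNN. All came from BY4741, a haploid laboratory strain of budding yeast (Saccharomyces cerevisiae). Each carried a low copy plasmid with the selection marker URA3 and an mCherry reporter, a red fluorescent protein gene, whose promoter and terminator differed between groups. Cultures were shaken at 200 rpm and 30 °C in SC-Ura, a medium without uracil, for 4 h until the OD600 was 0.7. Libraries were made from total RNA with QuantSeq REV, which sequences messenger RNAs from their 3′ ends. The modified terminators held 3 insertion sites of 9 bp. In the labels' notation N stands for a random sequence and A for the motif ATATTC, so modNNN held random inserts throughout and modNAA an N insert followed by A inserts.

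The contexts were the RPS3 promoter with the RPS3 terminator (pRPS3-tRPS3; 2 modNAA and 4 modNNN libraries), the PGK1 promoter with the RPS3 terminator (pPGK1-tRPS3; 2 and 2) and the TSA1 promoter with the TSA1 terminator (pTSA1-tTSA1; 2 and 2). RPS3 encodes a protein of the small ribosomal subunit, PGK1 the glycolytic enzyme phosphoglycerate kinase and TSA1 a peroxiredoxin. No label says that libraries of a group came from separate cultures, so every p-value measures only the spread between these libraries, which may be technical.

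In yeast, RNA polymerase II transcripts are cut and polyadenylated by the cleavage and polyadenylation machinery, which reads A-rich and UA-rich elements upstream of the cut and U-rich stretches around it. Most genes use a cluster of neighbouring cut sites rather than a single base, so a gene makes messages with slightly different 3′ untranslated regions. Those regions also hold binding sites for proteins that set how long the message lasts, so a change in a terminator can alter the place of the 3′ end, the amount of message, or both.

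Library totals ran from 1013603 to 3551271 counts. A library held 2484 to 20822 mCherry counts, of which 2363 to 19996 were ends within 200 nt of the stop codon. Markers of the strain's mating type were present, the a-factor gene MFA2 with 1607 to 5669 counts, while the alpha-factor genes MF(ALPHA)1 and MF(ALPHA)2 had at most 4 and 3. Summed over the lists, the 7 markers of that mating type had 2639 to 9451 counts and the 4 of the other 16 to 75. Genes deleted in BY4741 were at or near 0, with at most 1 count for LEU2 and none for MET17 or the chromosomal URA3. The leading component of the spread within groups held 37.9% of that variance, and native PGK1 ranged from 150 to 4710 CPM, counts scaled to library size by the TMM method over host features.

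The native terminators from which the reporters derive are shown here at the bases where their own messages end, since the modified reporters can be read against them. Capitals mark positions 48, 49, 53, 54, 59 and 63 after the RPS3 stop codon and positions 96, 100, 103, 104, 106 and 114 after the TSA1 stop codon, counting the base after the stop codon as 1. Sequences are from RefSeq, build R64, plus strand, at chrXIV:303443-303472 for RPS3 and chrXIII:220819-220848 for TSA1, downstream of the coding sequence.
RPS3 terminator, positions 41 to 70: atttcttCTattCTagtgCactTaattgtt
TSA1 terminator, positions 91 to 120: aatgcTattCacTGaCaaaacgaTacacta
The letters ATATTC did not occur on either strand in the 200 bases after the RPS3 stop codon. On the coding strand they occurred in the same window after 800 of 5015 host genes (15.95%), and on the other strand after 698 (13.9%). The median log2 change of the former genes between the terminators was -0.01.

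With modNAA, the RPS3 terminator ended its messages at other bases. Position 57, the most used end with modNNN, lost share in both promoter contexts, and positions 60, 62, 80 and 81 gained share. In the fit of shares across all 47 positions with at least 50 ends, with promoter as a block, 31 positions changed (66% of those tested; edgeR quasi-likelihood test, adjusted p under 0.05). Of these, 9 rose (19.1%) and 22 fell (46.8%). Most positions of this terminator therefore shifted in share, and a call at any single position has to be read against that. The fit also pools its estimate of spread over positions of the same libraries, whose shares depend on one another. Its p-values can thus be far smaller than the libraries alone would give, and calls near the threshold, as at position 56, are weak.

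Position 57 held 34.1%, 33.6%, 30.7% and 29.5% of mCherry ends in the 4 modNNN libraries of pRPS3-tRPS3, and 18.0% and 17.3% in the modNAA libraries. In pPGK1-tRPS3 it held 35.6% and 32.9% with modNNN and 12.5% in each modNAA library. The groups did not overlap in either context. Averaged over the contexts the difference was -18.1 percentage points (exact permutation test over libraries within contexts, 2-sided, p = 0.0111, the smallest that 90 arrangements allow; adjusted p = 0.0185 over 5 measures). This position and the other windows tested by permutation below were chosen with earlier results of these data known. Adjustment over 5 measures does not count that choice, so these p-values describe the values and are no independent test.

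Positions 80 to 81 moved the other way. Their summed share was 4.42%, 4.73%, 5.34% and 4.79% in the modNNN libraries of pRPS3-tRPS3 and 20.4% and 19.9% in the modNAA libraries. In pPGK1-tRPS3 it was 3.37% and 4.07% with modNNN, and 21.8% and 22.3% with modNAA. Every modNAA library lay above every modNNN library, by 16.8 points on average (exact permutation test, p = 0.0111, the smallest of 90 arrangements; adjusted p = 0.0185). In the fit of shares, position 80 rose by 2.85 on the log2 scale (SE 0.14) and position 81 by 1.70 (SE 0.15).

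The neighbouring positions 75 to 76, a main cluster with either terminator, did not pass the test in sum. In pRPS3-tRPS3 modNNN libraries averaged 33.9% ± 1.68 there (SD, n = 4) and modNAA libraries 34.1% ± 0.539 (SD, n = 2). In pPGK1-tRPS3 the averages were 29.4% ± 0.0186 for modNNN and 42.2% ± 0.182 for modNAA (SD, n = 2 each). The exact permutation test over the 10 libraries gave a difference of 6.50 points with p = 0.167. Within this cluster the shares changed in opposite directions in pRPS3-tRPS3, where position 75 went from 18.9% to 13.5% and position 76 from 15.0% to 20.6%. As amounts, both positions fell in that context, as given further down. In pPGK1-tRPS3 both positions gained share, position 75 from 16.6% to 19.96% and position 76 from 12.8% to 22.2%.

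**Figure D1:**
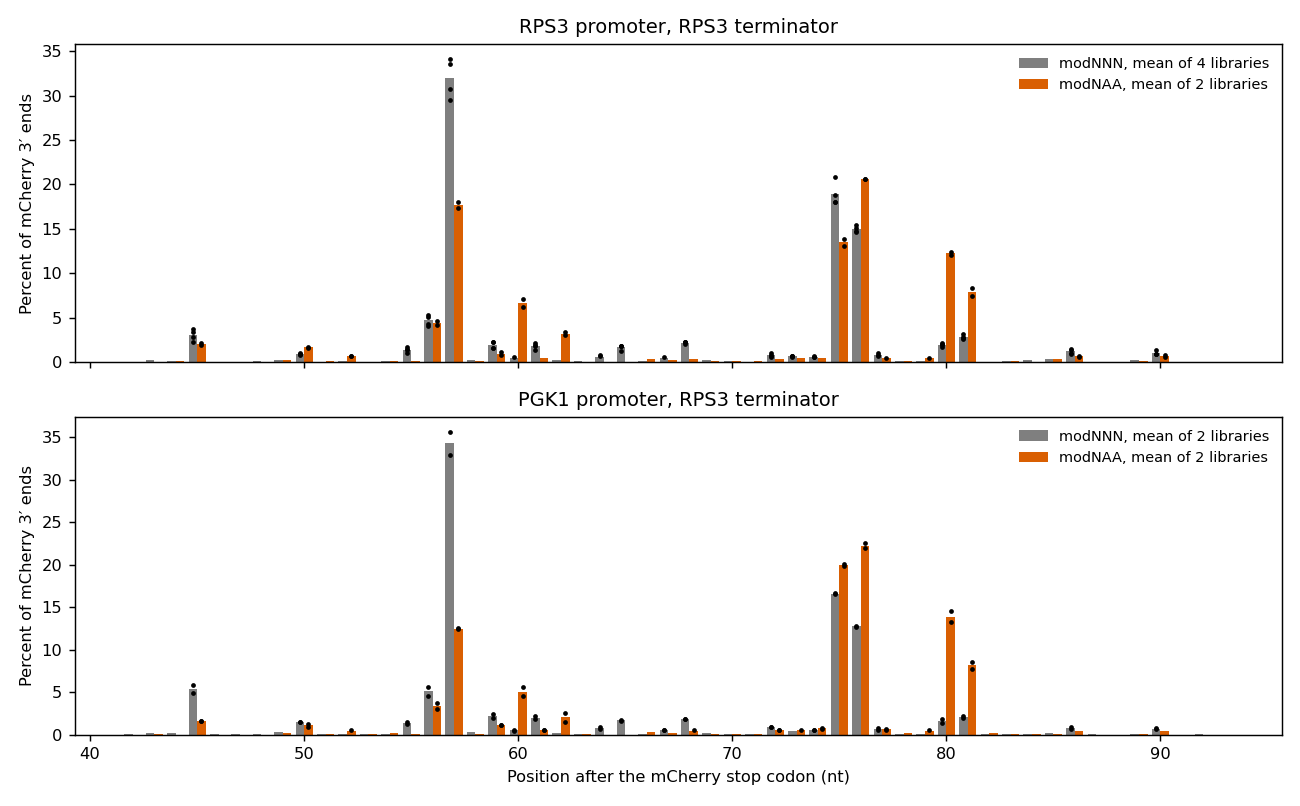
Share of mCherry 3′ ends (y axis, percent of ends within 200 nt) at each position after the stop codon (x axis, nt) for the RPS3 terminator, with the RPS3 promoter above and the PGK1 promoter below. Bars are means over libraries and black points single libraries above 0.5%. The modNNN bar at position 57 stands near 31.97% and 34.3%, and the modNAA bars at positions 80 and 81 stand above those of modNNN in both panels.

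Positions that were rarely used with modNNN also gained. In pRPS3-tRPS3, position 60 went from 0.471% ± 0.0833 of ends (SD, n = 4) to 6.68% ± 0.656 (SD, n = 2) in modNAA libraries. In pPGK1-tRPS3 it went from 0.506% ± 0.00608 to 5.09% ± 0.724 (SD, n = 2 each). Position 62 went from 0.275% to 3.18% and from 0.158% to 2.07%. Over both contexts, position 60 rose by 3.58 (SE 0.18) and position 62 by 3.55 (SE 0.21) on the log2 scale. Among the sites that held at least 2% of ends, positions 45, 56, 57, 59, 61 and 68 fell, position 56 the least (log2 -0.32, SE 0.15, adjusted p = 0.0433, edgeR; -0.07 in pRPS3-tRPS3, where the groups overlapped and it did not pass, and -0.58 in pPGK1-tRPS3) and position 68 going from 2.21% to 0.399% in pRPS3-tRPS3.

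A few minor positions also differed; they lie outside the rule for named sites and were chosen after their values were seen. Position 65 held 683 of 41200 ends over the 6 modNNN libraries and 5 of 34180 over the 4 modNAA libraries. Position 64 held 265 and 3. Position 176, far downstream, was used with modNNN. It held 53 ends with modNNN, at least 5 in every library, and 0 of 34180 with modNAA, which allows a share of up to 0.00878%, so its share was at least 14.7-fold lower with modNAA (floor of 3 counts over the group, counting error only). It was also rarely or never used with the other modified terminators in these contexts. It held 3 of 51468 ends with modNTN and 0 of 44365 with modHTH, so here modNNN stood apart and not modNAA. The unmodified terminator held 0 of 71758 at this number, but it lacks the inserts, so the same number may mark another base. Position 52 showed the reverse of 64 and 65, with 44 ends with modNNN and 183 with modNAA. It held more with modNTN, 1695 of 51468, and with modHTH, 1415 of 44365. A higher share there than with modNNN was thus not particular to modNAA. The unmodified terminator held 183 of 71758 at the same number, with the limit just given. The construct sequences were not used here, so which of these positions lie inside an insert was not tested.

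Averaged over the 200 positions after the stop codon, ends on the RPS3 terminator lay further downstream with modNAA. mCherry counts outside these positions are left out of that mean. They made up 6.26% with modNNN and 4.94% with modNAA in pRPS3-tRPS3, and 5.53% and 4.05% in pPGK1-tRPS3. Where they ended was not tested, so the direction holds only within 200 nt. In pRPS3-tRPS3 the mean end position moved from 66.6 ± 0.520 nt (SD, n = 4) to 69.2 ± 0.0199 nt (SD, n = 2) on going from modNNN to modNAA. In pPGK1-tRPS3 it moved from 64.7 ± 0.641 nt to 71.1 ± 0.000919 nt (SD, n = 2 each). Ends up to position 70 made up 41.0% with modNAA and 54.2% with modNNN in the former, and 30.6% with modNAA and 60.8% with modNNN in the latter. At the same time the far tail thinned. Positions 91 to 200 held 0.379% with modNAA and 0.923% with modNNN in pRPS3-tRPS3, and 0.315% and 0.961% in pPGK1-tRPS3. These summaries were chosen after the values were seen and are given without a test.

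Whether the promoter altered the effect of modNAA on the RPS3 terminator was asked with an interaction term. It passed at 5 of 47 positions (10.6%), 2 with a higher (4.26%) and 3 with a lower modNAA effect (6.38%) under the PGK1 promoter. Position 75 differed by 0.76 (SE 0.09, adjusted p = 5.63e-06, edgeR), since its share fell by 0.49 in pRPS3-tRPS3 and rose by 0.27 in pPGK1-tRPS3. Position 57 differed by -0.60 (SE 0.09, adjusted p = 3.25e-05, edgeR), and the others were positions 45, 50 and 76. Within the contexts, 23 of 47 positions changed in pRPS3-tRPS3 (48.9%; 9 higher, 19.1%, and 14 lower, 29.8%) and 32 of 47 in pPGK1-tRPS3 (68.1%; 10 higher, 21.3%, and 22 lower, 46.8%).

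Shares always sum to the whole, so the amount of message ending at each position was also tested, as CPM. Spread was pooled over positions in this fit too, with the same limit on its p-values. In pRPS3-tRPS3, 35 of 47 positions changed (74.5%), 5 higher (10.6%) and 30 lower (63.8%). In pPGK1-tRPS3 it was 29 of 47 (61.7%), 9 higher (19.1%) and 20 lower (42.6%), and 17 were called without replicate 1 of modNNN, which leaves a single library in that arm. Counts of calls in these contexts thus ran against different totals of reporter message, which are given further down.

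Message ending at position 57 went from 1128 ± 305 CPM (SD, n = 4) in modNNN libraries of pRPS3-tRPS3 to 240 ± 4.71 CPM (SD, n = 2) in modNAA libraries. In pPGK1-tRPS3 it went from 2197 ± 648 CPM to 778 ± 96.4 CPM (SD, n = 2 each). It fell in both contexts, with log2 changes of -2.23 (SE 0.33) and -1.50 (SE 0.34). Message ending at position 80 rose in both, from 69.4 ± 19.5 CPM to 167 ± 11.2 CPM (log2 1.26, SE 0.32) and from 102 ± 8.32 CPM to 867 ± 162 CPM (log2 3.09, SE 0.40). Position 60 rose likewise, by 2.44 (SE 0.35) and 3.28 (SE 0.41) on the log2 scale.

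At other positions the contexts parted. Position 81 gained share in both, but its amount in pRPS3-tRPS3 was 107 ± 2.79 CPM with modNAA and 99.99 ± 22.9 CPM with modNNN, which did not pass the test (log2 0.10, SE 0.33), while in pPGK1-tRPS3 it rose from 131 ± 16.9 to 506 ± 28.4 CPM. Position 75 fell in pRPS3-tRPS3 from 673 ± 203 to 184 ± 15.9 CPM (log2 -1.87, SE 0.33), and stood at 1057 ± 259 CPM with modNNN and 1243 ± 163 CPM with modNAA in pPGK1-tRPS3, without passing the test. Position 76 fell in the former (log2 -0.92, SE 0.32) and rose in the latter (log2 0.77, SE 0.35, adjusted p = 0.0467, edgeR). The call in the latter lies close to the threshold and is weak, since spread was pooled over positions.

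**Figure D2:**
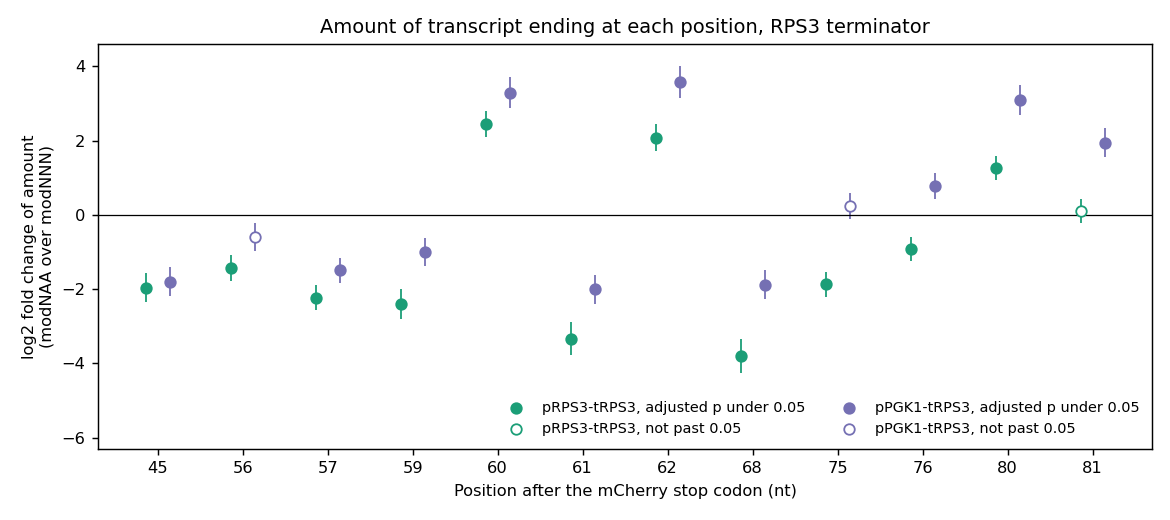
Log2 fold change of the amount of mCherry message (CPM), modNAA over modNNN, at each named position of the RPS3 terminator (x axis, nt after the stop codon). Points are estimates and bars their SE, filled where the adjusted p was under 0.05. Positions 60, 62 and 80 lie above 0 under both promoters, and position 76 lies below 0 with the RPS3 promoter and above 0 with the PGK1 promoter.

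Set against the native gene, positions 80 and 81 have a counterpart, while positions 60 and 62, which modNAA also gained, have none among the 6 most used native positions. Native RPS3 messages ended at positions 53 and 54 with 7.10% ± 1.06 and 9.84% ± 0.782 of ends (SD, n = 10 libraries), within the upper case CT that follows CTatt in the printed stretch. Moved downstream by the 27 inserted bases, these become positions 80 and 81, with 13.1% ± 1.09 and 8.02% ± 0.476 of modNAA ends (SD, n = 4) but 1.85% ± 0.244 and 2.60% ± 0.453 of modNNN ends (SD, n = 6). Native positions 48 and 49 become 75 and 76 in the same way. The most used native ends, positions 59 and 63 with 18.2% ± 1.33 and 20.5% ± 2.22, become 86 and 90, which held under 2% with either terminator, 0.553% and 0.554% with modNAA and 1.08% and 0.929% with modNNN. This reading holds only if all inserted bases lie upstream of these ends, which was not tested.

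Other insert combinations in the same contexts showed that these shares differ between them. Positions 80 to 81 held 6.99% ± 0.337 and 6.22% ± 0.184 with modNTN in pRPS3-tRPS3 and pPGK1-tRPS3, and 2.51% ± 0.533 and 2.72% ± 0.226 with modHTH (SD, n = 2 each), where T and H stand for other motifs. Both lay below modNAA in every library. Position 57 held 8.15% and 10.5% with modNTN and 11.6% and 10.1% with modHTH, below modNAA, and positions 75 to 76 held 61.3% and 60.6% with modNTN and 60.5% and 63.4% with modHTH, above modNAA. For each of these 6 comparisons the exact permutation test gave p = 0.0556, the smallest that 36 arrangements allow, so none could pass 0.05.

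In the TSA1 terminator the most used end was the same with either insert set. It held 40.7% in each modNNN library, and 36.9% and 36.1% in the modNAA libraries. The groups did not overlap, and the difference was -4.18 points, but with 2 libraries against 2 the exact permutation test cannot go below 0.333, which it gave. The fit of shares across 36 positions called 8 (22.2%), 6 higher (16.7%) and 2 lower (5.56%), with the most used end changed by -0.16 on the log2 scale (SE 0.01, adjusted p = 0.00640, edgeR) and positions 122, 127 and 130 up by 0.44, 0.13 and 0.26. No call was left without replicate 1 of modNNN, and 5 were without replicate 1 of modNAA; each of these fits leaves a single library in that arm, assumed to vary like the other arm. As amounts, 0 of 36 positions (0%) passed, and 7 did without replicate 2 of modNAA, whose mCherry level was the higher of the pair.

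Here the native pattern carried over with either terminator. Native TSA1 messages ended at position 106 with 39.7% ± 1.17 and at position 100 with 16.9% ± 0.543 of ends (SD, n = 4), bases shown in upper case in the stretch printed above. Their counterparts 27 bases on, the most used reporter end and position 127, had 36.5% ± 0.550 and 14.9% ± 0.421 of modNAA ends, beside 40.7% ± 0.0357 and 13.6% ± 0.0143 of modNNN ends (SD, n = 2 each). The mean position of ends within 200 nt was 129.6 ± 0.203 nt with modNAA and 130.6 ± 0.208 nt with modNNN.

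**Figure D3:**
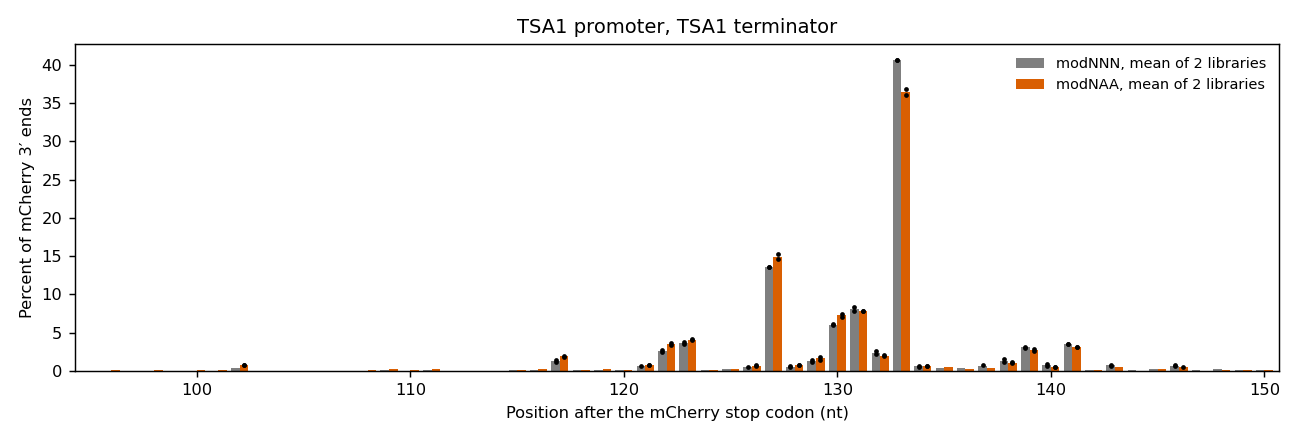
Share of mCherry 3′ ends (y axis, percent) at each position after the stop codon (x axis, nt) for the TSA1 terminator. Bars are means of 2 libraries and black points single libraries above 0.5%. Both terminators peak at the same position, at 40.7% with modNNN and 36.5% with modNAA.

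Whole profiles were compared by the total variation distance, the percent of ends that would have to move to turn 1 profile into another. Over the 3 contexts, mCherry profiles of modNAA and modNNN libraries lay 27.1% apart on average and profiles of the same terminator 5.65% (exact permutation test within contexts, 1-sided, p = 0.00741, the smallest that 540 arrangements allow for a distance; adjusted p = 0.0370 over 5 genes). For the control genes, which share the libraries but not the inserts, the distances were 9.33% between and 7.51% within for native RPS3, 6.02% and 6.78% for TSA1, 17.3% and 16.1% for PGK1 and 3.97% and 4.08% for plasmid URA3. None of the 4 passed, with exact permutation p from 0.133 to 0.741. For mCherry on the RPS3 terminator alone the distances were 36.3% and 6.10% (exact permutation p = 0.0222, the smallest that 90 arrangements allow for a distance, since swapping both labels of a balanced context leaves it unchanged; adjusted p = 0.111). A single gene at that smallest p cannot pass adjustment over 5 genes. In the same libraries native RPS3 stood at 10.4% between and 7.41% within, with an exact permutation p of 0.0444 and an adjusted p of 0.111. On the TSA1 terminator the mCherry distances were 8.67% and 3.60% (exact permutation p = 0.333, the smallest that 6 arrangements allow).

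**Figure D4:**
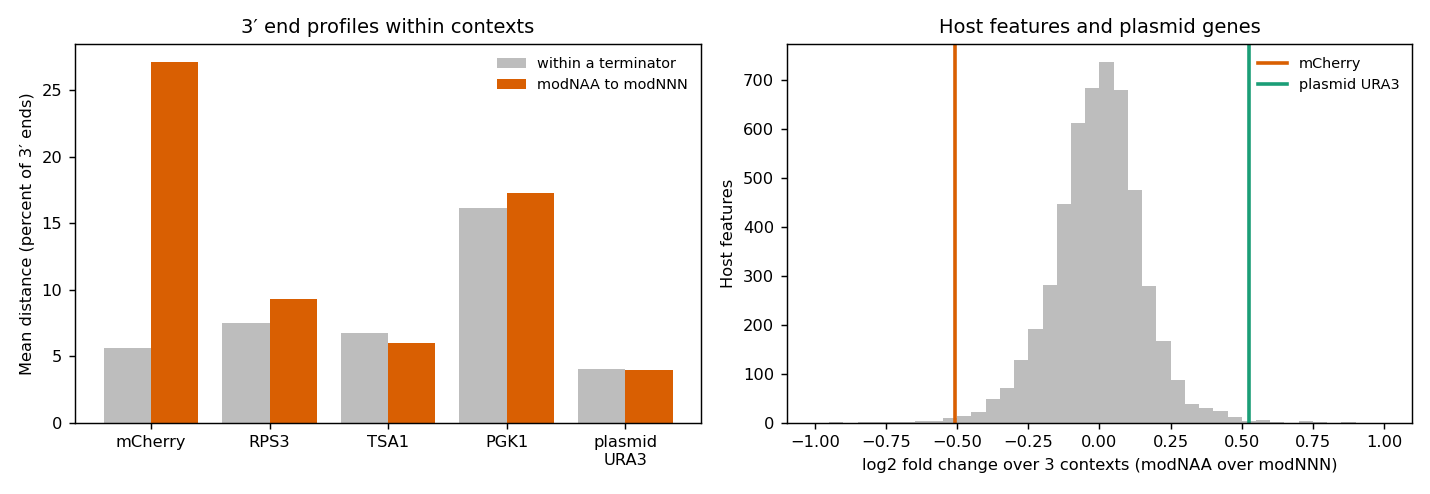
Left, mean distance between 3′ end profiles (y axis, percent of ends) within a terminator and between modNAA and modNNN, for mCherry and 4 control genes, where mCherry stands at 27.1% between and 5.65% within. Right, number of host features (y axis) by log2 fold change of modNAA over modNNN over the 3 contexts (x axis), with lines for mCherry at -0.51 and plasmid URA3 at 0.53.

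The amount of mCherry message depended on how it was scaled. In pRPS3-tRPS3 it was 1386 and 1482 CPM with modNAA, and 3014, 4851, 2861 and 4341 CPM with modNNN, so the groups did not overlap. The log2 change was -1.39 (SE 0.28, 95% interval -1.98 to -0.80), with an edgeR quasi-likelihood p of 0.000166 on its own and 0.420 after adjustment over all features, so it did not pass in the main test. DESeq2 gave -1.40 with an adjusted p of 0.000269. In pPGK1-tRPS3 mCherry was 5939 and 7038 CPM with modNAA and 7859 and 5618 CPM with modNNN, and in pTSA1-tTSA1 it was 2917 and 5498 CPM against 3753 and 4175 CPM. These groups overlapped, with log2 changes of -0.05 (SE 0.30, 95% interval -0.69 to 0.58) and 0.09 (SE 0.30, interval -0.55 to 0.72). The effect in pPGK1-tRPS3 minus that in pRPS3-tRPS3 was 1.34 (SE 0.40), with an edgeR p of 0.00466 unadjusted and 0.631 adjusted.

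The ratio of mCherry to URA3 counts, which does not depend on library size, was lower with modNAA in each context. In pRPS3-tRPS3 it was 0.273 and 0.267 with modNAA and 0.850, 0.900, 0.950 and 1.03 with modNNN. In pPGK1-tRPS3 it was 0.905 and 1.05 against 1.40 and 1.39, and in pTSA1-tTSA1 1.55 and 1.52 against 2.63 and 2.34. All 6 modNAA libraries lay below every modNNN library of their context. The ratio fell, with a mean log2 difference of -0.997 over the contexts (exact permutation test within contexts, 2-sided, p = 0.00185, the smallest that 540 arrangements allow; adjusted p = 0.00926 over 5 measures). Its log2 difference was -1.78, -0.51 and -0.70 in the order of the contexts given here.

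Plasmid URA3 (URA3_plasmid), which encodes orotidine phosphate decarboxylase and is selected for in this medium, is the other term of that ratio. It had 5077 and 5551 CPM with modNAA in pRPS3-tRPS3, against 3546, 5391, 3013 and 4224 CPM. In pPGK1-tRPS3 it had 6559 and 6683 CPM against 5629 and 4052 CPM, and in pTSA1-tTSA1 1887 and 3617 CPM against 1427 and 1781 CPM. The URA3 groups overlapped in pRPS3-tRPS3, and both modNAA libraries lay above both modNNN libraries in the other contexts. Its log2 change over the contexts was 0.53 (SE 0.16), with an edgeR p of 0.00452 unadjusted and 0.985 adjusted over all features. Within contexts URA3 changed by 0.39 (SE 0.25) in pRPS3-tRPS3, 0.45 (SE 0.30) in pPGK1-tRPS3 and 0.78 (SE 0.30) in pTSA1-tTSA1 on the log2 scale. None of these passed adjustment. The mCherry changes in the same order were -1.39, -0.05 and 0.09. By definition the ratio holds both changes, and the part of each in its fall was not tested. Outside pRPS3-tRPS3 the mCherry change itself was within its SE of 0.

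**Figure D5:**
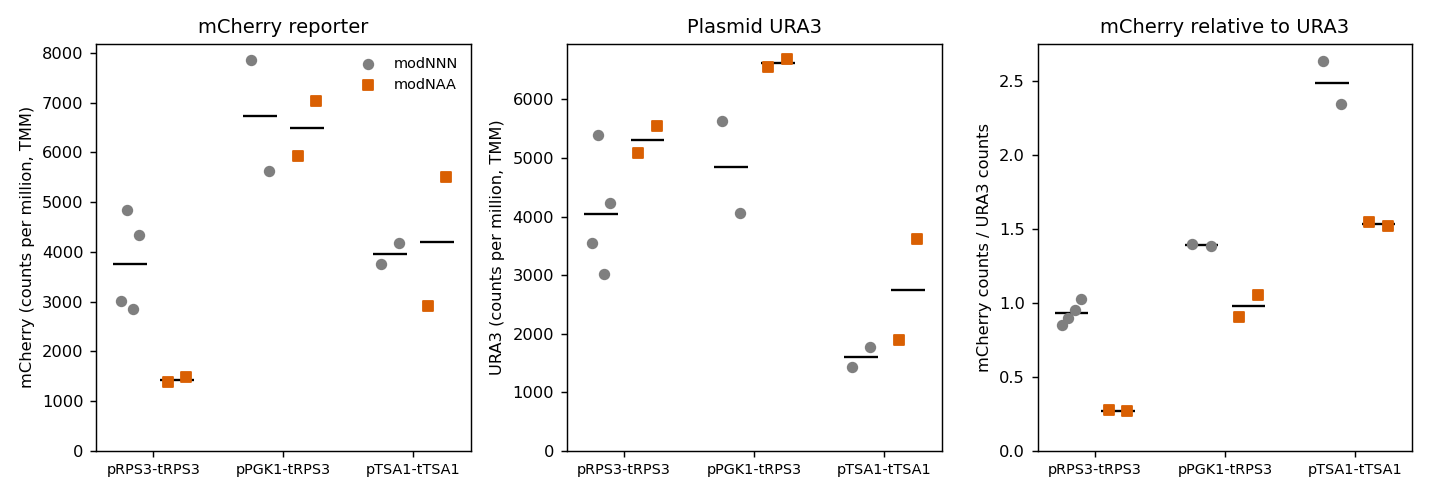
mCherry (left) and plasmid URA3 (middle), in CPM, and their ratio of counts (right), by context on the x axis. Points are libraries and lines group means. The modNAA ratios of 0.267 to 0.273 in pRPS3-tRPS3 lie below all 4 modNNN ratios, and the ratios do not overlap in the other contexts either.

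The yeast genes themselves showed no change that passed the test. Of 5065 host features, 0 were called over the 3 contexts (0%; edgeR), and 164 had an unadjusted p under 0.05, while DESeq2 called 0 with 88 unadjusted. Within contexts edgeR called 0 in each, with 102, 620 and 40 unadjusted in pRPS3-tRPS3, pPGK1-tRPS3 and pTSA1-tTSA1, and DESeq2 called PHO12 in the first and NSR1 in the second. The 95% interval of the log2 change lay within 1 of 0 for 97.3% of features over the contexts, and for 85.3%, 73.7% and 83.6% within them. Changes of more than a doubling were thus bounded for most genes, not all. Without replicate 1 of modNAA, 238 features were called in pPGK1-tRPS3. That fit leaves a single modNAA library there, the one with the highest TMM factor, and assumes that it varies like the other groups.

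The genes with the smallest unadjusted p over the contexts are given as values. NUP192, which encodes a nuclear pore protein, had a log2 change of 0.40 (SE 0.09), ALO1, the last enzyme of erythroascorbate synthesis, 0.72 (SE 0.21), and MPT5, a Pumilio family protein that binds 3′ untranslated regions, 0.32 (SE 0.09). MAG1, a DNA glycosylase, had 0.38 (SE 0.11) and TFC7, a subunit of a polymerase III transcription factor, 0.29 (SE 0.09). On the lower side were HXT1, a low affinity glucose transporter, at -0.48 (SE 0.13), HIS2, of histidine synthesis, at -0.43 (SE 0.12), and LTO1, TAN1 and SIP18 at -0.80, -0.30 and -0.50. All had an adjusted p of 0.986 (edgeR). NUP192 ran from 39.5 to 49.4 CPM in the modNAA libraries and from 26.6 to 37.01 CPM in the modNNN libraries. It was picked for its small p from these same values, so the gap between the ranges is no further support.

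The native sources of the reporter parts did not pass either. Native RPS3 had a log2 change of -0.26 (SE 0.13) over the contexts and -0.62 (SE 0.22) in pPGK1-tRPS3, TSA1 of -0.02 (SE 0.08) and PGK1 of 0.16 (SE 0.61). The zinc-regulated genes ZPS1, ADH4 and VEL1 had -0.28 (SE 0.16), -0.20 (SE 0.15) and -0.64 (SE 0.27). None of these had an adjusted p under 0.985 over the contexts (edgeR).

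Gene groups gave the same count of 0 called in either direction, in each list, over the contexts. Among 22 factors of cleavage and polyadenylation, 9 had a value above 0 and the median log2 change was -0.02, beside 0.001 over all features. MPE1, a subunit of the cleavage and polyadenylation factor, had 0.42 (SE 0.21), and REF2, another, -0.22 (SE 0.10). Of 11 termination factors 7 were above 0 (median 0.03), of 29 mRNA decay factors 11 (median -0.04) and of 15 proteins that bind 3′ untranslated regions 7 (median -0.04). The zinc regulon had 2 of 13 above 0 (median -0.10), hexose transport 3 of 11 (median -0.11), peroxiredoxins and thioredoxins 10 of 17 (median 0.02), heat shock 3 of 18 (median -0.11) and pyrimidine synthesis 3 of 11 (median -0.03).

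Small ribosomal subunit genes had 11 of 56 above 0 over the contexts (median -0.12), and glycolysis 4 of 19 (median -0.08). Both medians were furthest from 0 in pPGK1-tRPS3. In pPGK1-tRPS3 they were -0.37 and -0.42, in pRPS3-tRPS3 -0.08 and 0.08, and in pTSA1-tTSA1 0.06 and 0.06. In pPGK1-tRPS3 an unadjusted p under 0.05 was found for 620 of all 5065 features (12.2%), for 11 of 56 ribosomal and 3 of 19 glycolytic genes, and for 6 of 18 heat shock (median -0.23) and 4 of 11 hexose transport genes (median -0.34). None passed adjustment. Beside this, replicate 2 of modNAA in that context had the highest TMM factor of the 14 libraries, 1.28, and its part in these medians was not tested.

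The test between contexts called 1 feature of 5065 (0.0197%), PHO12, which encodes a secreted acid phosphatase (YHR215W, R64 chromosome VIII, transcript at 552099 to 553502). It had 19.0 and 15.9 CPM with modNAA against 50.9, 35.7, 58.6 and 42.7 CPM in pRPS3-tRPS3, and 24.8 and 30.8 CPM against 13.6 and 12.0 CPM in pPGK1-tRPS3. The groups did not overlap in either context, and they stood in opposite order. PHO12 was picked by this same difference, so the lack of overlap is no further support. Its effect in pPGK1-tRPS3 minus that in pRPS3-tRPS3 was 2.54 on the log2 scale (SE 0.34, adjusted p = 0.0137, edgeR), also the only call of that contrast (0.0197%), and the other contrasts between contexts called 0 (0%). PHO12 has a near-identical copy, PHO11, which had -0.70 (SE 0.31) and 0.88 (SE 0.41) in these contexts, so reads may be split between them. In pTSA1-tTSA1 PHO12 had a mean of 34.4 CPM with modNAA and 27.6 CPM with modNNN. The edgeR call over the 3 contexts ended without any of 11 of the 14 libraries and with a replicate block. DESeq2 with all 14 libraries also called PHO12 between the contexts (likelihood ratio test, adjusted p = 0.000277).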

How the data were processed

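Gene read counts and counts of mCherry 3′ ends at 200 positions after the stop codon were analysed as deposited by the authors, without normalization. Per the submitters' processing notes, the tools were FastQC, cutadapt, HISAT2, featureCounts, bedtools, MultiQC and SAMtools and the build sacCer3 (R64); how they were set is not given in the sources used here. The table does not define position 1, which was taken as the base after the stop codon. Members, windows and gene lists were chosen with earlier results of these data known.

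Of 5698 features, 5550 matched RefSeq. Quasi-likelihood fits used edgeR 4.0.16, with limma 3.58.1 under R 4.3.3, after filterByExpr, with TMM factors from host features, 1 coefficient per group for contexts, context as a block over contexts, and Benjamini-Hochberg adjustment over all features. The code was tested on simulated data. Positions with at least 50 ends were fitted with the total of ends, or the host library size, as size. Shares and ratios were tested by exact permutation of libraries within contexts. Named host genes were those called, up to 10 per direction, else the 5 with the smallest p per direction, plus RPS3, TSA1, PGK1, ZPS1, ADH4, VEL1 and the extremes of each list. Named sites held at least 2% of ends. No pair of replicates agreed within sampling noise. Alternatives included DESeq2 1.42.0, other scalings and filters, and leaving out libraries. Per-library counts of 1013603 to 3551271 carry no molecular identifiers, so floors cover counting error only.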

Additional observations from a re-analysis of the deposited data

Results flagged for a closer look

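The effect of modNAA on the share of mCherry ends differed between the PGK1 and the RPS3 promoter at some positions of the RPS3 terminator. The interaction test passed at 5 of 47 (10.6%). The difference on the log2 scale was -1.16 at position 45, -1.29 at position 50, -0.60 at position 57, 0.76 at position 75 and 0.34 at position 76.

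PHO12 differed between the same contexts by 2.54, also by the test of the difference itself.

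In the group of 4 modNNN libraries of pRPS3-tRPS3, the share of ends at position 62 had a library apart from the rest. Replicate 2 held 0.401% and the others 0.229% to 0.238%, a gap of 0.948 of the whole range, above Dixon's critical value. These shares rest on few ends, 24 in replicate 2 and 10, 6 and 14 in replicates 1, 3 and 4, so counting error is large. Of 37 sets of 4 values 1 was so marked, and chance marks about 1 in 20.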

How the results depend on the processing

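Of 398 values compared, 356 were rated unchanged. For tests this means the same direction and side of the threshold, and for counts of calls a count equal or close to the main one. Of the rest, 27 were counts of calls that moved and 9 were values that changed direction. Another 5 no longer passed the threshold and 1 newly passed it. With library totals the mCherry log2 change in pPGK1-tRPS3 turned to 0.076 and the pTSA1-tTSA1 minus pPGK1-tRPS3 difference to -0.062; with URA3 as size factor that difference was -0.19 and the pTSA1-tTSA1 change -0.70. DESeq2 put mCherry in pRPS3-tRPS3 past the threshold (-1.40). Without a library in turn, these 3 values ran from -0.30 to 0.19 (pPGK1-tRPS3), from -0.39 to 0.52 (difference) and from -0.45 to 0.45 (pTSA1-tTSA1).

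Host calls were 1 in pRPS3-tRPS3 and 10 in pPGK1-tRPS3 with all 34 libraries, and 1 in each with DESeq2. Without a library in turn they ran from 0 to 1 and from 0 to 238, and between contexts from 0 to 25; the 1 came without replicate 2 of pRPS3-tRPS3 modNNN, and the 238 and 25 without replicate 1 of pPGK1-tRPS3 modNAA, with 1 library in that arm. With only replicates 1 and 2 of pRPS3-tRPS3 modNNN the between-context count was 0, position 57 gave -19.0 points, positions 80 to 81 16.9 points and the RPS3 terminator distance 36.7%, with fewer arrangements and exact permutation p of 0.0556, 0.0556 and 0.111. That distance ran from 36.004% to 36.7% without a library in turn, with an exact permutation p of 0.0667, the smallest then possible, without either modNAA library of pRPS3-tRPS3. With at least 200 ends per site, 20 sites changed in share for the RPS3 and 5 for the TSA1 terminator. Fewer sites were tested then, so these counts cannot be set against the main 31 of 47 and 8 of 36. In windows of 10 nt 8 of 10 changed for the RPS3 and 9 of 13 for the TSA1 terminator. Without a library in turn, there were 0 to 8 share calls for the TSA1 terminator, and 17 to 29 amount calls for pPGK1-tRPS3 beside 0 to 7 for pTSA1-tTSA1. The cause of these changes was not tested.

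No label says what libraries with the same replicate number share. Correlations of same-numbered deviations were 0.050 in pRPS3-tRPS3, -0.361 in pPGK1-tRPS3 and 0.610 in pTSA1-tTSA1. In pTSA1-tTSA1 the leading component within groups was 0.358 (modNNN) and 0.364 (modNAA) for replicate 1, with the opposite sign for replicate 2. In pPGK1-tRPS3 replicate 1 had 0.236 (modNNN) and -0.285 (modNAA). Whether same-numbered libraries shared a batch was not tested. A replicate block gave 0 between-context host calls and mCherry changes of -1.42, -0.04 and 0.02. In share it called 29 of 47 sites of the RPS3 and 10 of 36 of the TSA1 terminator. With 2 libraries in most groups, small shares and single-gene changes are limited by depth and by replication.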
